A study of Mus musculus with 2 samples.

Results

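Glycolysis and hypoxia-response transcripts were examined in cultured bone marrow cells of Cpdm and wildtype mice. The group is a fixed list of 35 genes of glucose uptake, glycolysis, lactate handling, oxygen sensing and the response to low oxygen. Its members are the probe sets, outside the array's own controls, whose platform annotation names exactly 1 gene of the list. The rule found 71 of 45037 probe sets, for 32 of the 35 genes. No probe set of Gpi1, Gapdh or Eno1 met it. A probe set is the group of short probes on an Affymetrix array that reports 1 transcript, and 20 of the 32 genes had more than 1.

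The study profiled 2 cultures, 1 from Cpdm mice and 1 from wildtype mice, with 1 array each. Cpdm is the chronic proliferative dermatitis mutation, a spontaneous frameshift in Sharpin that leaves mice without functional SHARPIN, a component of the linear ubiquitin ligase downstream of the TNF receptor. Both cultures held marrow cells that were not sorted, so blood-lineage cells and stroma are measured together, and both were grown for 10 days with ascorbic acid at 50 µg/ml and with β-glycerophosphate at 10 mM, supplements that promote bone-forming differentiation. No other agent is given in the labels, and they do not state strain, age, sex or the number of mice. Since each genotype has a single array, replicate error is unknown and no test was made, and every difference below describes these 2 arrays.

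Glycolysis turns glucose into pyruvate through a fixed chain of enzymes, and lactate dehydrogenase then turns pyruvate into lactate, which leaves the cell through monocarboxylate transporters. Where oxygen is short, the hypoxia-inducible factors HIF-1α and HIF-2α escape degradation and bind DNA with ARNT at sites built around the letters ACGTG or GCGTG. Many genes of glycolysis and of lactate export are targets of these factors. Bone-forming cells are known for high aerobic glycolysis, and macrophages switch to it on activation.

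Promoters of 4 members are shown because these genes carry the HIF core letters while their signals differed in direction between the cultures. Slc16a1 and Ldha were lower in Cpdm, Pgk1 was near equal and Slc2a1 was higher. Each window runs from 250 bases before to 50 after the RefSeq start in build GRCm38.p6, is written 5′ to 3′ on the gene's own strand, and has every match to ACGTG or GCGTG on either strand in capitals. The Slc16a1 window is chr3:104638414-104638713, the Ldha window chr7:46845554-46845853, the Pgk1 window chrX:106186850-106187149 and the Slc2a1 window chr4:119108495-119108794, all on the plus strand.
Slc16a1: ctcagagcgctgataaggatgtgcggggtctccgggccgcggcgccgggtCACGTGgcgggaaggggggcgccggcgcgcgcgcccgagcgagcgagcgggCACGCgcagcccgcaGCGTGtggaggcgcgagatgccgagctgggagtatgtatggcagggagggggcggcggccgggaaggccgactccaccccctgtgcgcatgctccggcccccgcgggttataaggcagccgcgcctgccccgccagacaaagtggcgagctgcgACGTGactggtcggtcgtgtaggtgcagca
Ldha: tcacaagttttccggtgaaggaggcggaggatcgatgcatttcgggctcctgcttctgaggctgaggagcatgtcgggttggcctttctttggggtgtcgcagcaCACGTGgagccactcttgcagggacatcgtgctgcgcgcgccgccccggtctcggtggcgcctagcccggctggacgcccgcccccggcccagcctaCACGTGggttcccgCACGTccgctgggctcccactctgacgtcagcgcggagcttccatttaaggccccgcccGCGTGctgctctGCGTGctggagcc
Pgk1: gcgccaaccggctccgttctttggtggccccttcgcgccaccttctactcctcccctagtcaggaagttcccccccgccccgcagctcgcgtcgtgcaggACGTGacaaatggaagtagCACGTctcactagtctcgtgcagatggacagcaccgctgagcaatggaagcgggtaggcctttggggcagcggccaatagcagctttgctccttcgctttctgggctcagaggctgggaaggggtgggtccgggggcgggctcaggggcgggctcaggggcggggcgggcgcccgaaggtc
Slc2a1: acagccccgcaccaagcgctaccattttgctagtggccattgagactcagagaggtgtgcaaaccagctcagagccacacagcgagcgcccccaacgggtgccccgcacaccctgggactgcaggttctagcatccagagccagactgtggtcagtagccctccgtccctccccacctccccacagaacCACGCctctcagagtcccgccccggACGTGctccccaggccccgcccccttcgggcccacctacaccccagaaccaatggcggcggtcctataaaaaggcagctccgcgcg

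The Ldha window, the most upstream of 2 for that gene, held 7 matches, the Slc16a1 window 5, and the Pgk1 and Slc2a1 windows 2 each. The palindrome CACGTG counts as 2 overlapping matches, since it reads as ACGTG on both strands. Of the 35 genes, 32 had a promoter window in the RefSeq table, and Ndrg1, Slc2a3 and Epas1 did not. At least 1 match lay in 37 of their 46 windows (80.4%), against 58.0% of the windows of all measured genes and 43.8% of all 32851 windows. Among measured members with a window, 16 of 17 with a log2 ratio below 0 and 11 of 12 with one above 0 had a match, so nearly all members of both directions held one. Taken alone, ACGTG lay in windows of 14 of the 17 (82.4%) and 7 of the 12 (58.3%), and GCGTG in windows of 12 of the 17 (70.6%) and 8 of the 12 (66.7%). Over all 27025 genes with a window, measured or not, 46.7% held either, 21.8% held ACGTG and 35.2% held GCGTG. The differences between the 2 directions, and from all genes, were not tested. A match describes the letters in the window and does not show that a factor binds there.

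All differences are log2 ratios of the Cpdm over the wildtype signal, the deposited MAS5 intensity. Signals under the 40th percentile of an array, 18.5 for Cpdm and 18.7 for wildtype, were raised to that floor, and a gene was counted as measured if its representative, its brightest probe set on the mean log2 scale, reached the floor in at least 1 array. By this rule 14055 genes of the series and all 32 members with a probe set were measured, and 65 of the 71 member probe sets. The spread between 2 probe sets of 1 gene gives the error within the array pair. Over 5250 genes it corresponds to a robust SD of 0.32 for the log2 ratio of a single probe set, or 0.41 at mean signals under 100, 0.30 between 100 and 1000 and 0.15 over 1000. It leaves out all variation between mice and cultures.

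Whole-array facts that touch the members are these. Sharpin read 162 in Cpdm and 197 in wildtype, and 107 against 119.5 by its other probe set, which does not check the labels because a frameshift need not remove the transcript. Osteoblast markers were lower in Cpdm, with 8 of 9 measured genes at least 2-fold lower and a summed signal of 4983 against 15210. Macrophage markers were mostly higher, with 6 of 14 at least 2-fold higher, none at least 2-fold lower, and a summed signal of 18397 against 13019. Lyz2 was the only one of them with a log2 ratio below 0, at 2657 against 3507. All 8 proliferation markers were above 0, with 1, Mki67, at least 2-fold higher. Of 7 endothelial markers 5 lay under the floor in both arrays, as did the erythroid markers Alas2, Hba-a1 and Slc4a1. The erythroid markers Epor, at 133 in Cpdm and 124 in wildtype, and Klf1, at 41.0 in each, were above it in both. Xist read 1113 against 247 and the Y-linked Eif2s3y 80.6 against 249, and 18S ribosomal RNA controls had log2 ratios of -2.37 to -3.75. In these bulk cultures, fewer cells of a type and less RNA per cell cannot be told apart, and the part of any of these differences in the member values was not tested.

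Taken by the 2-fold rule, the members did not stand out from the array. Ndrg1 and Slc16a1 were at least 2-fold lower in Cpdm, 2 of 32 members (6.25%), where 5.98% of all measured genes were. No member was at least 2-fold higher, where 5.84% of all genes were. At a 1.5-fold rule, 8 members (25%) were lower against 13.5% of all genes, and 4 members (12.5%) were higher against 15.7% of all genes. The median log2 ratio was -0.19 over the members and 0.03 over all measured genes. Of the 32 members, 13 lay within 0.32 of 0, where 46.8% of all measured genes did.

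The members were also read by role. The 21 measured genes of glucose entry, glycolysis and lactate handling had a median of -0.02, with 3 at least 1.5-fold lower and 4 at least 1.5-fold higher. The 11 genes of oxygen sensing and hypoxia targets had a median of -0.54, with 5 at least 1.5-fold lower and none higher. Without any fold rule, 8 of these 11 were below 0, where 6686 of all 14055 measured genes were. Neither group was uniform. Within the first, the 5 genes of pyruvate and lactate handling had a median of -0.58 with 4 below 0, whereas glucose entry, upper glycolysis and lower glycolysis had medians of -0.03, 0.10 and -0.04. Within the second, the 4 oxygen-sensing genes had a median of -0.29 and the 7 hypoxia targets one of -0.64.

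**Figure D1:**
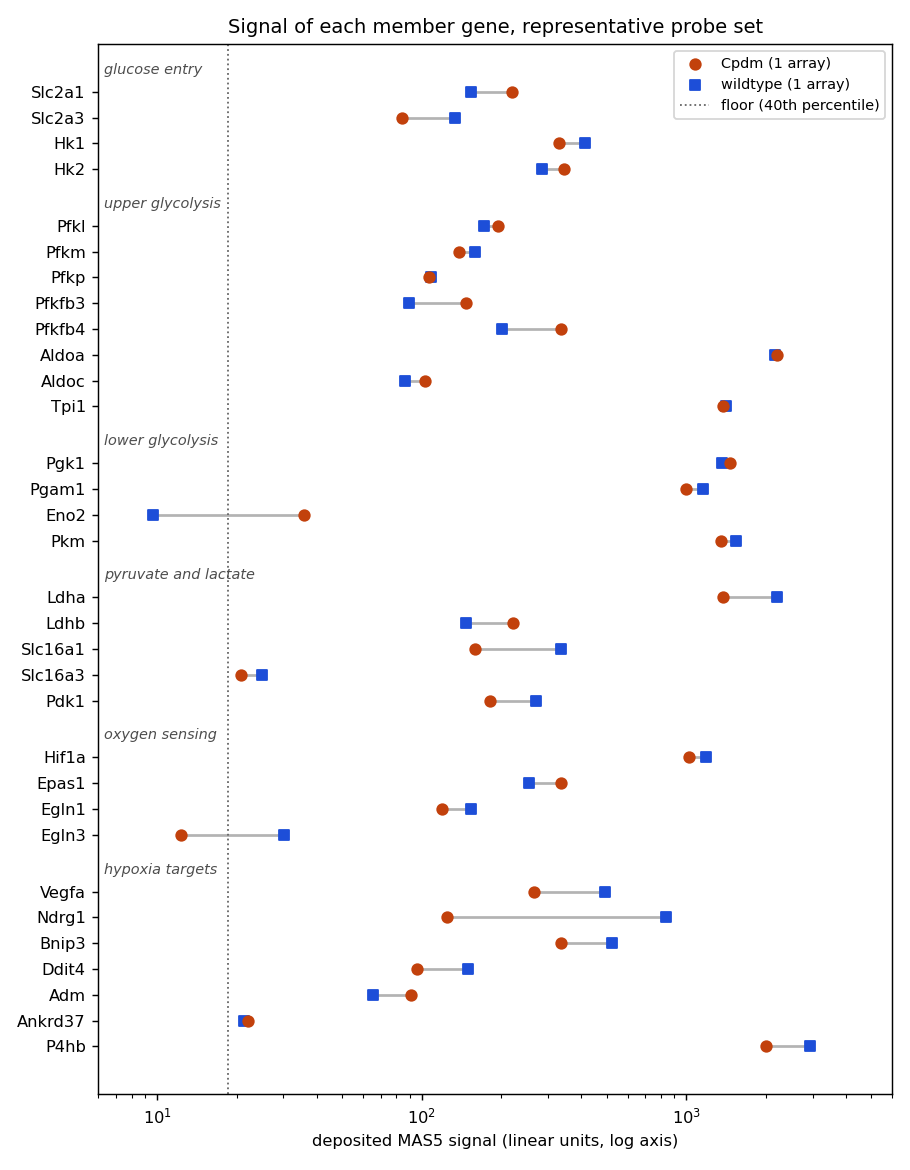
Deposited MAS5 signal on a log axis for the 32 member genes by their representative probe set, grouped by role, with circles for the single Cpdm array and squares for the single wildtype array, and a dotted line at the floor of 18.5. Most pairs of points lie close together, and the widest gap is that of Ndrg1, at 124 in Cpdm and 837 in wildtype.

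Counting probe sets in place of genes, 11 of 65 measured member probe sets (16.9%) were at least 2-fold lower, against 6.37% of all measured probe sets that name 1 gene. Ndrg1 supplied 5 of the 11, and they come from 7 genes in all. Without Ndrg1, 6 of 60 measured member probe sets were at least 2-fold lower. Those of Pfkp, Hif1a and Hk1 among them were dim, and the representatives of these genes were less than 2-fold lower. Only 1 member probe set, for Ldhb, was at least 2-fold higher (1.54%), against 5.3% of all.

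Glucose entry showed opposite values for its paired isoforms. Slc2a1, the widely expressed glucose transporter GLUT1, read 218 in Cpdm and 153 in wildtype, a 1.43-fold higher signal. Its other probe sets gave 193 against 136 and 160 against 110, so all 3 were higher in Cpdm by nearly the same factor, with log2 ratios between 0.50 and 0.54. The high-affinity transporter gene Slc2a3 (GLUT3) was 1.58-fold lower by its representative, at 84.4 in Cpdm and 134 in wildtype. That direction rests on 1 probe set, since another gave 52.7 against 51.2, and a dim one read 24.6 in Cpdm with 17.9, under the floor, in wildtype. The remaining Slc2a3 probe set lay under the floor in both arrays. Hexokinase traps glucose in the cell by phosphorylation. Hk2, its inducible form, read 343 against 285, and Hk1, the constitutive form, 330 against 415. A dimmer Hk1 probe set read 26.1 against 54.9, a 2.11-fold lower signal.

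The enzymes in the middle of the pathway were near equal between the cultures. Aldoa, the main aldolase outside liver and brain, had 5 probe sets with log2 ratios between -0.14 and 0.09, and its brightest read 2203 in Cpdm and 2156 in wildtype. The others read 1749 against 1645, 1450 against 1384, 930.0 against 895 and 570.1 against 629, so only the dimmest was below 0. Tpi1, triosephosphate isomerase, had 3 probe sets between -0.04 and 0.08, at 1375 against 1411, 1196 against 1194 and 952 against 899. All 8 values lay within 0.15 of 0. Each comes from a probe set whose name suffix (_s_at, _x_at or _a_at) marks probes that may also bind other transcripts. The same holds for all measured probe sets of Slc2a3, Hk1, Aldoc, Pgam1, Eno2, Ldha, Ldhb and P4hb. Among the phosphofructokinase subunits, which catalyse the committed step, the liver form Pfkl read 194 against 172, the muscle form Pfkm 138 against 158 and the platelet form Pfkp 107 against 108. The other Pfkl probe sets were 1.59-fold and 1.32-fold higher. The Pfkp probe sets disagreed, since a dimmer one read 19.6 against 44.8 and the last 28.2 against 15.2, with the wildtype value under the floor. Aldoc, the brain aldolase, read 103 against 86.1.

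The regulators of phosphofructokinase were the members of upper glycolysis furthest from 0. Pfkfb3 and Pfkfb4 encode the bifunctional enzymes that set fructose 2,6-bisphosphate, the allosteric activator of phosphofructokinase, and both are known HIF targets. Pfkfb4 read 336 in Cpdm and 200.4 in wildtype, a 1.68-fold higher signal from its only probe set. Pfkfb3 read 147 against 89.2, a 1.65-fold higher signal. Its second probe set, near the floor, went the other way at 24.3 against 29.1.

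In lower glycolysis the bright enzyme transcripts differed by 1.07-fold to 1.16-fold by their representatives. Pgk1, phosphoglycerate kinase, read 1456 in Cpdm and 1361 in wildtype. Its other 2 probe sets, which also carry such a suffix, gave larger differences in the same direction, at 1647 against 1166 and 322 against 230.0. Pgam1, phosphoglycerate mutase, read 995 against 1151, and Pkm, pyruvate kinase, 1348 against 1535. Eno2, the neuronal enolase, was above the floor only in Cpdm, at 35.9 with 9.60 in wildtype, which makes it at least 1.92-fold higher.

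Gapdh could be followed only with probe sets outside the rule, either array controls or shared probe sets that name several genes. The 3 control probe sets read 2631 against 2496 at the 3′ end, 2845 against 3056 in the middle and 3148 against 3462 at the 5′ end. Their log2 ratios of 0.08, -0.10 and -0.14 lay around 0. The bright shared probe set read 2546 against 2527, and 2 dimmer ones had log2 ratios of 0.42 and -0.57. The signal at the 3′ end over that at the 5′ end, a measure of RNA integrity, was 0.836 in Cpdm and 0.721 in wildtype. For the actin controls the same measure was 1.92 in Cpdm and 1.61 in wildtype.

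**Figure D2:**
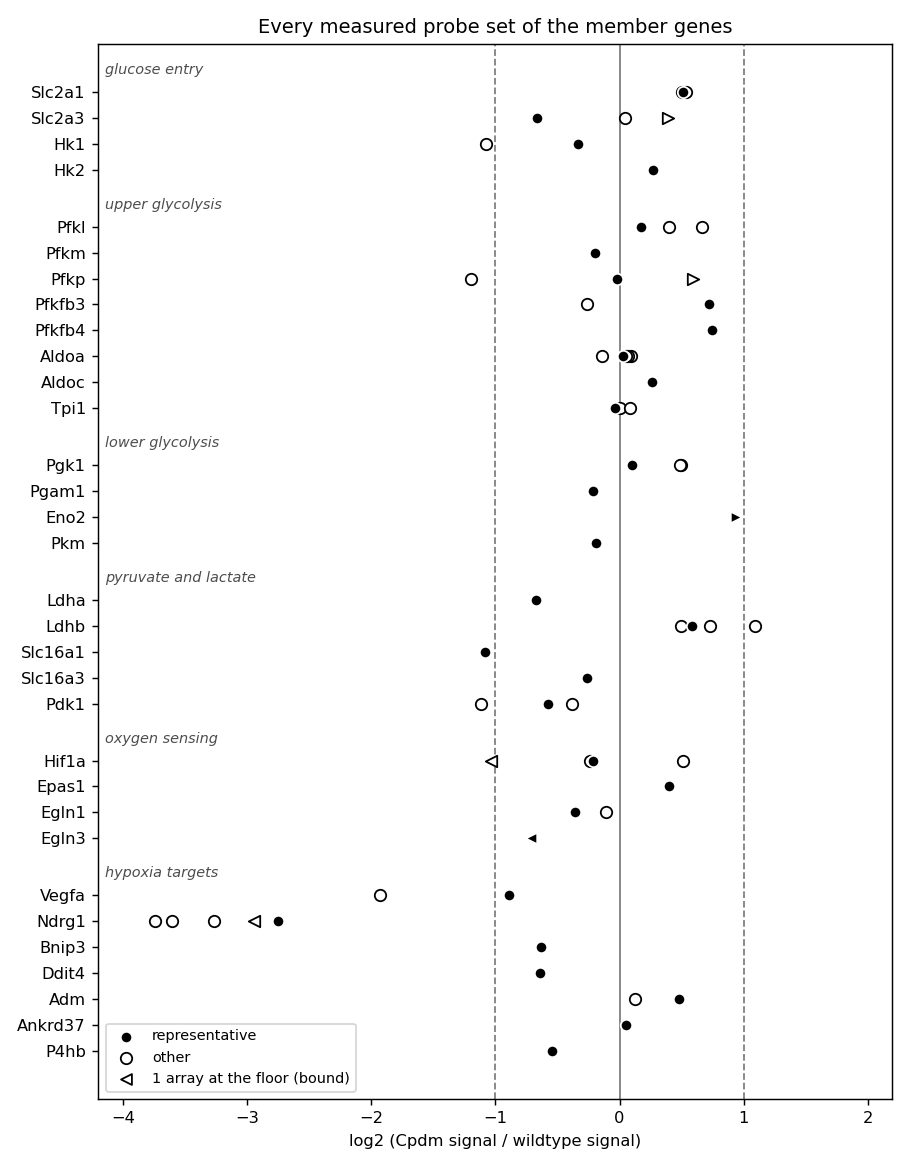
Log2 ratio of Cpdm over wildtype signal for each of the 65 measured probe sets of the member genes, with filled symbols for the representative, open symbols for the others, triangles where 1 array lay at the floor so that the value is a bound, and dashed lines at 2-fold. All 5 Ndrg1 probe sets lie at or left of -2.75, whereas Hif1a, Pfkp, Pfkfb3, Slc2a3, Aldoa and Tpi1 have probe sets on both sides of 0.

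The lactate step held the widest gap between related members. Ldha encodes the lactate dehydrogenase subunit that favours lactate formation, and Ldhb the subunit that favours its oxidation. Ldha read 1379 in Cpdm and 2202 in wildtype by its only probe set, a 1.60-fold lower signal, or a log2 ratio of -0.67 where bright probe sets vary by 0.15. Ldhb was higher in Cpdm by all 4 probe sets, at 220.1 against 147, 178 against 108, 125 against 58.4 and 71.2 against 50.6, which is 1.41-fold to 2.13-fold. The 2 log2 ratios differ by 1.26, where a difference between 2 probe sets has an SD of 0.45. Among 9 pairs of related members, the next gaps by representative probe sets were Slc2a1 over Slc2a3 at 1.18 and Slc16a3 over Slc16a1 at 0.82. Both have limits. The other measured Slc2a3 probe sets had log2 ratios of 0.04 and 0.39, unlike its representative. Slc16a3 lay close to the floor, at 20.7 against 24.8.

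Of the lactate carriers among the members, 1 was clearly above the floor. Slc16a1, which encodes the monocarboxylate transporter MCT1, read 159 in Cpdm and 337 in wildtype, a 2.12-fold lower signal. Its second probe set lay under the floor in both arrays, so the value rests on 1 probe set. Slc16a3, which encodes MCT4, the HIF-induced exporter, was close to the floor at 20.7 against 24.8. Pdk1, a pyruvate dehydrogenase kinase, was lower by all 3 measured probe sets. They read 181 against 270.2, 139.8 against 183 and 44.5 against 96.5, which is 1.31-fold to 2.17-fold lower.

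Genes related to these carriers differed too. They belong to a list of 23 genes of pyruvate fate and gluconeogenesis, of which 20 were measured, 4 were at least 2-fold lower (20.0%) and 2 at least 2-fold higher (10.0%), with a median log2 ratio of -0.33. Over all measured genes the shares were 5.98% lower and 5.84% higher. Bsg, basigin, the chaperone that brings MCT1 and MCT4 to the membrane, read 1038 in Cpdm and 2512 in wildtype, a 2.42-fold lower signal. Emb, embigin, the alternative chaperone, was 2.23-fold higher at 439.7 against 197, and 1.63-fold higher by another probe set. Slc16a7, which encodes the high-affinity transporter MCT2, read 112 against 34.7, a 3.23-fold higher signal. These 3 genes were singled out after their values were seen, Bsg and Emb as chaperones of such carriers and Slc16a7 as a further carrier.

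The genes of that list furthest from 0 make or use phosphoenolpyruvate and malate. Pck2, the mitochondrial phosphoenolpyruvate carboxykinase, was 5.63-fold lower at 122 in Cpdm and 685 in wildtype, and at least 4.06-fold lower by its other probe set. Me2, the mitochondrial malic enzyme, read 101 against 365, and its other probe sets above the floor gave 1.69-fold and 4.16-fold lower signals. Me1, the cytosolic malic enzyme, was 3.28-fold lower at 213 against 699, and 2.37-fold lower by the other probe set. Pdk4, a further pyruvate dehydrogenase kinase, was just inside 2-fold at 566 against 1121.

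**Figure D3:**
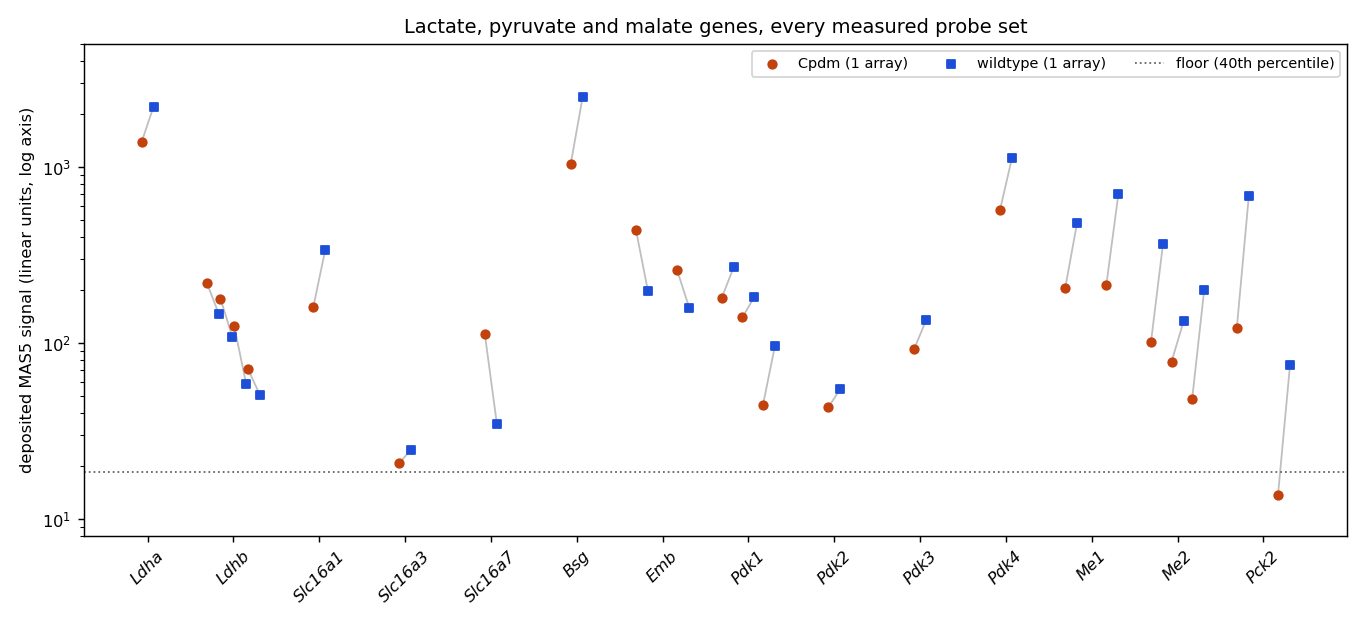
Deposited MAS5 signal on a log axis for lactate, pyruvate and malate genes, with each measured probe set as a circle for the Cpdm array joined to a square for the wildtype array. Ldhb, Slc16a7 and Emb slope down toward wildtype, and Ldha, Slc16a1, Bsg, Pdk1, Me1, Me2 and Pck2 slope up toward it.

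Of the 4 oxygen-sensing members, 3 were below 0 and 1, Egln3, passed the 1.5-fold rule. Hif1a, the gene of HIF-1α, read 1024 in Cpdm and 1190.0 in wildtype by its brightest probe set and 336 against 397 by the next, which is 1.16-fold and 1.18-fold lower. Its 2 dim probe sets disagreed, at 37.8 against 26.6 and at 7.28 against 37.8, where the Cpdm value lies under the floor. HIF proteins are controlled by degradation, so these transcript signals do not report their activity. Epas1, the gene of HIF-2α, read 335 against 254, a 1.32-fold higher signal. Egln1, the main prolyl hydroxylase that marks HIF for degradation, was 1.28-fold lower at 119 against 153 and 1.08-fold lower by its other probe set. Egln3, a hydroxylase that HIF itself induces, was above the floor only in wildtype, at 12.3 in Cpdm and 30.2 in wildtype, hence at least 1.64-fold lower.

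Other genes of oxygen sensing lay on both sides of 0. In a list of 15, all were measured, 7 were below 0 and 8 above, and the median log2 ratio was 0.15. Siah2 was at least 2-fold lower (6.67% of the list, against 5.98% of all genes), and none was at least 2-fold higher, against 5.84% of all genes. Siah2, a ubiquitin ligase that targets the prolyl hydroxylases, read 44.2 against 91.3 and 20.7 against 43.2. The coactivator gene Ep300 read 346 against 207. Eloc, elongin C of the VHL ligase, was 1.36-fold higher by its brightest probe set and 2.25-fold higher by its widest.

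Ndrg1 was the member that differed most. The gene encodes a cytoplasmic protein induced by low oxygen and by iron chelation. Its 5 probe sets read 124 in Cpdm and 837 in wildtype, 69.4 and 930, 51.7 and 499.7, 19.7 and 241, and 4.32 and 143. The corresponding signals were 6.74-fold, 13.4-fold, 9.66-fold, 12.2-fold and at least 7.73-fold lower in Cpdm. The Cpdm value of the last lay under the floor and that of the fourth near it. By its representative, Ndrg1 ranked 106 from the lowest log2 ratio among 14055 measured genes.

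Vegfa, the vascular endothelial growth factor gene and a classic HIF target, came next among the targets. It read 264 in Cpdm and 491 in wildtype, a 1.86-fold lower signal. The second probe set gave a larger difference, 32.4 against 123, or 3.80-fold lower. Bnip3, a mitophagy receptor, read 337 against 523, and Ddit4, the inhibitor of mTORC1 also called REDD1, read 95.6 against 149. They were 1.55-fold and 1.56-fold lower, each from a single probe set.

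The remaining targets went different ways. P4hb, protein disulfide isomerase and the β subunit of collagen prolyl 4-hydroxylase, read 2004 in Cpdm and 2922 in wildtype, a log2 ratio of -0.54 at a brightness where probe sets vary by 0.15. Adm, the gene of the vasodilator peptide adrenomedullin, was 1.39-fold higher at 91.1 against 65.4 and 1.09-fold higher by its other probe set. Ankrd37, an ankyrin-repeat gene induced by HIF-1, lay near the floor in both arrays at 21.9 and 21.2.

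**Figure D4:**
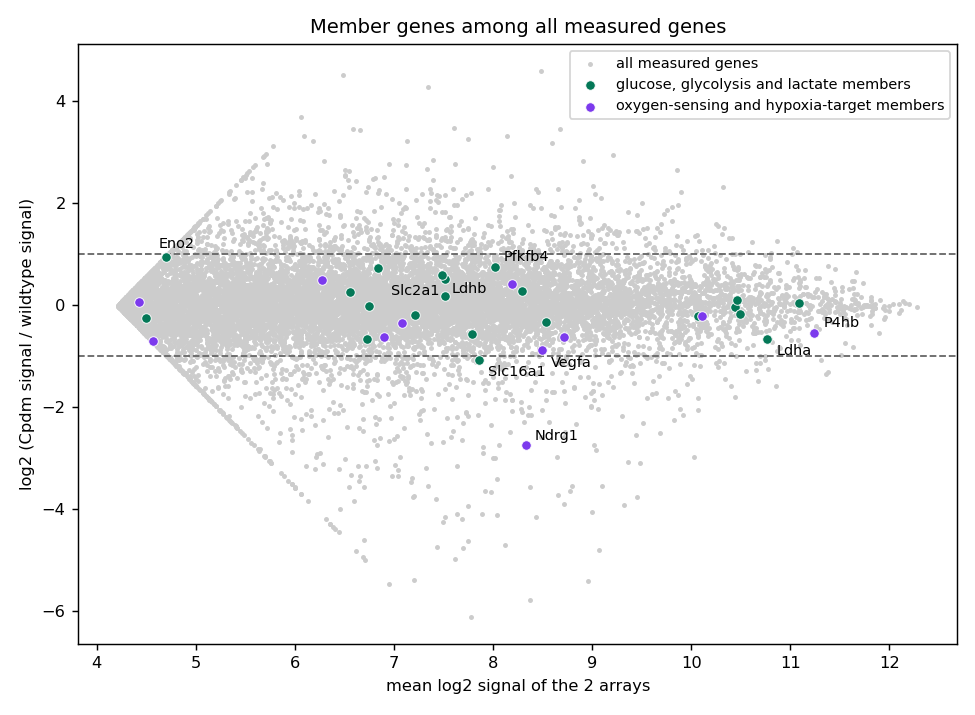
Log2 ratio of Cpdm over wildtype signal against the mean log2 signal for all 14055 measured genes in grey, with glucose, glycolysis and lactate members in green and oxygen-sensing and hypoxia-target members in purple; dashed lines mark 2-fold. Ndrg1 at -2.75 lies apart from the other members, which fall between -1.08 and 0.94.

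Hypoxia-inducible genes outside the member list were more often lower than higher in Cpdm. Of 51 listed, 41 were measured, 10 were at least 2-fold lower (24.4%) and 2 at least 2-fold higher (4.88%), with a median log2 ratio of -0.32. All measured genes gave 5.98% lower and 5.84% higher, so the share of higher genes was near that of the array. The list was chosen with earlier results of these data known, so its shares describe a chosen set and were not tested. Car12, a membrane carbonic anhydrase, read 47.3 in Cpdm and 559 in wildtype, an 11.8-fold lower signal, and was at least 5.54-fold lower by another probe set. Rcor2, a corepressor gene, was at least 8.64-fold lower, at 11.3 against 159.6. P4ha2, the α subunit partner of P4hb in collagen prolyl hydroxylation, read 91.4 against 736, an 8.05-fold lower signal. A few genes, Ppp1r3c among them, stand in more than 1 list.

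The 5 measured collagen-modifying enzymes of that list, grouped after their values were seen, did not all have the same direction. P4ha2, given above, was lower. P4ha1, the other common α subunit, was lower too and read 339 in Cpdm and 1037 in wildtype, and 49.5 against 389 by a second probe set. Plod2, a collagen lysyl hydroxylase, was 2.01-fold and 2.10-fold lower by its 2 probe sets. Lox, the lysyl oxidase gene, was 1.60-fold to 1.89-fold lower by its 3 probe sets. Plod1, another lysyl hydroxylase, was 1.16-fold higher at 338 against 293, with its dimmer probe set at 21.9 against 29.5. The osteoblast markers were lower in the same array, as given above, and Col1a1 among them read 1070.0 against 3222. The higher genes were Tfrc, the transferrin receptor, at 1434 against 478 by its brightest probe set with 28.9 against 39.6 by another, and the chemokine gene Cxcl12 at 1526 against 736.

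Side branches of glycolysis were compared in the same way. In the pentose phosphate pathway, which makes NADPH, 7 of 8 genes were measured, with a median log2 ratio of -0.01, none at least 2-fold lower and 1 at least 2-fold higher (14.3%, against 5.84% of all genes). That gene was H6pd, the dehydrogenase of the endoplasmic reticulum, at 121 in Cpdm and 7.99, under the floor, in wildtype, from 1 probe set and hence at least 6.48-fold higher. Pgd, 6-phosphogluconate dehydrogenase, was higher by all 4 probe sets, by 1.82-fold to 2.01-fold, with the representative at 1475 against 811. Taldo1, transaldolase, read 1781 against 1111.

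Glycogen and sugar-nucleotide genes centred on -0.13 over the 12 of 14 that were measured, with 2 at least 2-fold lower (16.7%, against 5.98% of all genes) and none higher, against 5.84% of all genes. Ppp1r3c, a subunit that directs phosphatase to glycogen, read 4.90 in Cpdm and 84.4 in wildtype, at least 4.57-fold lower. Pgm3, an enzyme of UDP-N-acetylglucosamine synthesis, read 94.8 against 208, and Pygb, the brain glycogen phosphorylase, 349.6 against 197. Among 22 further measured genes of glycolysis and sugar entry the median was -0.02, and 2 were at least 2-fold lower (9.09%, against 5.98% of all genes). These were Pgam2, the muscle phosphoglycerate mutase, at 52.9 against 251, and Slc2a10, a glucose transporter gene, at 58.3 against 139 and 21.9 against 86.4. Slc2a12 was at least 1.85-fold lower, at 16.3 against 34.2.

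**Figure D5:**
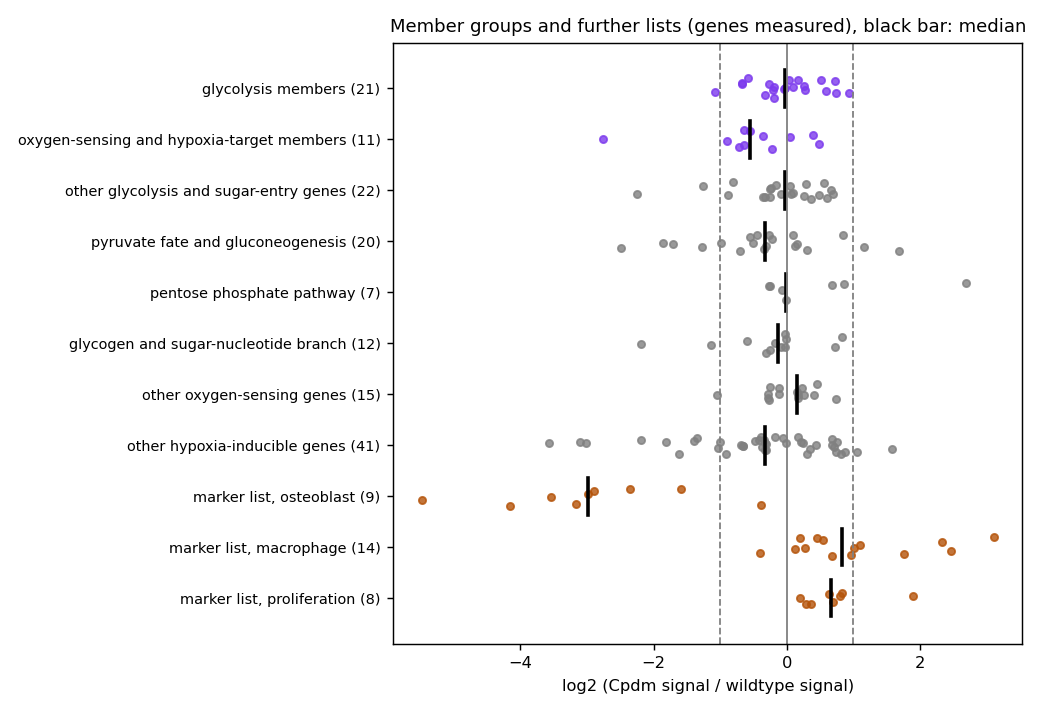
Log2 ratio of Cpdm over wildtype signal for each measured gene of the 2 member groups, the 6 further pathway lists and 3 marker lists, with the number of measured genes in brackets, a black bar at each median and dashed lines at 2-fold. Glycolysis members centre on -0.02, hypoxia members on -0.54, osteoblast markers on -2.98 and macrophage markers on 0.82.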

How the data were processed

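Messenger RNA was measured on 2 Affymetrix arrays, 1 Cpdm and 1 wildtype. The authors deposited both arrays' MAS5 intensity signals, on a linear scale, in 1 table. Per the submitters' processing notes, GCOS 1.4 was used with MAS5; no source used here gives a genome build or background settings. The mean without the lowest and highest 2% of values was 100.001 in both columns. Neither detection calls nor errors came with the values, and the number of arrays limits the precision.

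Signals were used without rescaling, with a floor at each array's 40th percentile. Of 45037 probe sets, 34945 name 1 gene, 932 several and 9160 none. All 71 member probe sets matched a current gene record by Entrez identifier, with no symbol changed. Sequences are from RefSeq (GRCm38.p6). Differences were counted by a fixed fold, 2-fold or 1.5-fold, with no test. The functions were tested on simulated data with known folds, where recovery was required only for the folds larger than 2-fold. The members, the 6 pathway lists and the 8 marker lists were chosen with earlier results of these data known. Every member is named, with all measured probe sets for those at least 2-fold different, those whose probe sets differ in sign and 6 fixed genes, and the 3 genes furthest from 0 in each pathway list. Python 3.11.15, numpy 2.4.6, pandas 2.3.3 and matplotlib 3.10.9 were used.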

Additional observations from a re-analysis of the deposited data

How the results depend on the processing

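The values were recomputed with another floor (25th or 60th percentile, or none), with log2(signal + 16), with equal medians, equal spike-in signals or quantile normalization, and with other choices of probe set. The median of all members stayed between -0.20 and -0.15, that of the glycolysis members between -0.04 and 0.04 on both sides of 0, and that of the oxygen-sensing and hypoxia-target members between -0.56 and -0.50. These medians do not always cover the same genes. Of the 32 members, 28 were measured with the 60th-percentile floor, and 22 with probe sets ending in _s_at, _x_at or _a_at left out. The count of members at least 2-fold lower was 2 or 3, the gene added being Egln3 with the 25th-percentile floor or none and Vegfa with the mean over probe sets. The count at least 2-fold higher was 0 by the main rule and 1 (Eno2) with the 25th-percentile floor, with no floor and with log2(signal + 16). The 1.5-fold rule gave 8 lower and 4 higher. No paired analysis was possible because each group holds 1 array, and leaving out an array was not possible for the same reason. Of 306 recomputed gene values, 292 shifted by no more than 0.32, 14 shifted by more, and no value of a gene past 2-fold changed sign. Ndrg1 lay between -3.27 and -2.61. With the probe set of smallest difference, Pfkfb3 had a log2 ratio of -0.26 and Slc2a3 of 0.04, both opposite to their representatives. Low signals limit Ankrd37, Slc16a3, Egln3 and Eno2, which lie near or under the floor.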
